A study of Mus musculus with 6 samples.

Results

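The adhesion and orphan G protein-coupled receptors were described in 2 populations of cells sorted from mouse small-cell lung tumours. The members were all genes whose symbol names an adhesion receptor (Adgr followed by a letter and a digit), a numbered receptor (Gpr and a number) or a receptor of the Gprc5 group. Each was read from a row of the deposited table that names this gene alone, and of several such rows the one with the highest mean was taken. This gave 88 of the 22179 genes measured, made up of 24 adhesion receptors, 60 numbered receptors and 4 Gprc5 receptors. Many numbered receptors have since been paired with a ligand, so the numbered group is a group of names rather than of receptors without a known ligand.

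GFP-high and GFP-negative cells were compared, with 3 arrays each. All 6 samples came from mice with conditional Rb, p53 and p130 alleles and a GFP reporter allele for Hes1, given Adeno-Cre into the trachea, so cells of both groups came from mice of the same genotype, and whether the alleles had recombined in the sorted cells was not tested. The lungs yielded tumours 5 to 6 months after that, and the protocol speaks of pooling the tumours of 3 mice before the sort. The samples are titled as biological replicates, but the sources used here do not say whether each is a separate pool, so the p-values measure only the spread between these samples. The promoter that drove Cre, the mice's age and sex, the gates of the sort and any removal of blood or vessel cells are not stated in the sources read here. RNA was measured on the Affymetrix Mouse Gene 2.0 ST array, and values are the log2 expression values that the authors deposited.

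G protein-coupled receptors cross the membrane in a bundle of helices and pass a signal to G proteins inside the cell. Adhesion receptors carry in addition a long extracellular part that binds neighbouring cells or matrix, and many are cut next to the membrane so that a tethered stretch can switch the receptor on. The latrophilins (Adgrl1 to Adgrl3) and the brain angiogenesis inhibitor group (Adgrb) are best known from synapses, and Adgrf5 from the alveolar epithelium of the lung. Small-cell lung tumours are neuroendocrine: their cells share secretory granules and many transcripts with neurons. Hes1 is a transcriptional repressor downstream of Notch receptors.

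The labels were checked on the arrays. Hes1 averaged 10.40 in GFP-high cells and 6.85 in GFP-negative cells, a log2 fold change of 3.54 ± 0.13 (SE, adjusted p = 4.87e-07). Of 12 measured neuroendocrine markers, 0 were higher and 11 lower in GFP-high cells, and Neurod1 was not called. Alveolar type 2 markers were higher in 10 of 12, club cell markers in 9 of 12 and alveolar type 1 markers in 9 of 10. The log2 of the summed neuroendocrine marker level was 11.07 to 12.14 in GFP-high and 13.72 to 13.86 in GFP-negative arrays. GFP-high 3 was the highest of the GFP-high arrays for that list: its median stood 1.59 below the GFP-negative mean, against 2.49 below for GFP-high 1 and 2.74 below for GFP-high 2. The arrays correlated at r = 0.987 to 0.991 within groups and at r = 0.918 to 0.940 between groups.

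Of the 88 receptors, 8 were higher and 19 lower in GFP-high cells at an adjusted p under 0.05, and 61 were not called. The called share was 30.7%, beside 30% of all genes (6661 of 22179). In each direction the shares were 9.09% higher, beside 13.0% of all genes, and 21.6% lower, beside 17.0% of all genes. The median log2 fold change of the receptors was -0.02, beside 0.01 over all genes. The count of higher receptors was 5 without GFP-high replicate 1 and also 5 without GFP-negative replicate 1. A fold change here cannot tell fewer cells that use a gene from less RNA per cell.

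Large changes and dim rows were counted separately. By the rule for a large change, called and at least 1 on the log2 scale, 3 receptors were higher (3.41%, beside 5.63% of all genes) and 9 lower (10.2%, beside 6.02% of all genes). Of the 88 receptors, 30 lay among the dimmest 30% of all genes, and 0 of these were called, whereas 437 of the 6654 genes there were called (6.57%). Of the 58 brighter receptors 27 were called (46.6%), beside 40.1% of all brighter genes. The groups did not overlap for 34 receptors (38.6%), beside 44.6% of all genes.

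**Figure D1:**
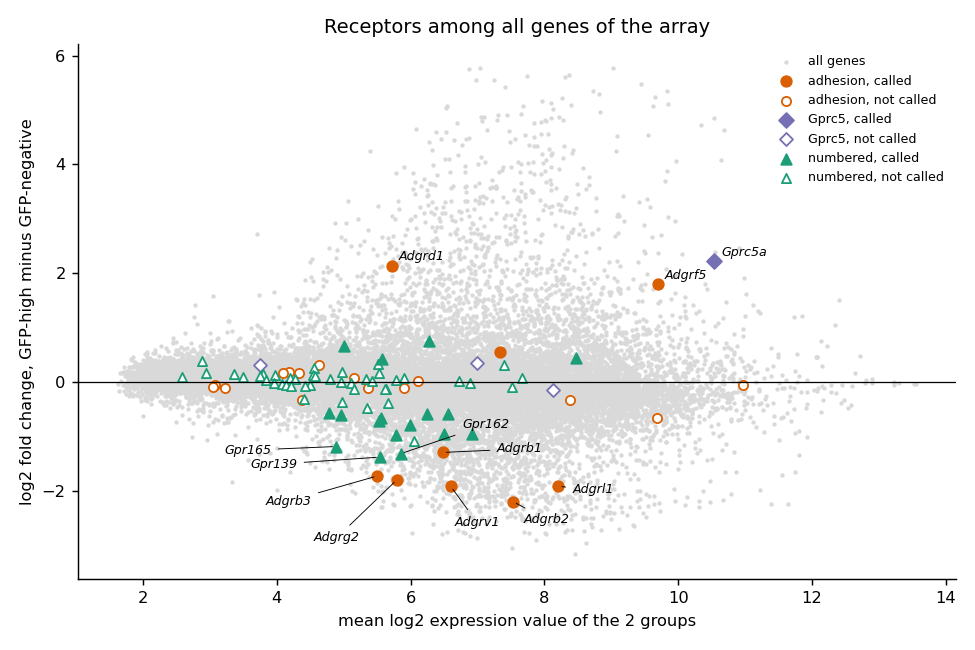
Mean log2 expression value of both groups (x axis) against the log2 fold change of GFP-high minus GFP-negative (y axis) for all genes, in grey, and for the 88 receptors, with filled symbols for those called at an adjusted p under 0.05. The 12 named receptors are called and lie at or beyond 1 in either direction, while the receptors at the dim left end are all open symbols near 0.

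The adhesion receptors held 8 of these 12 large changes. Large rises made up 8.33% of adhesion receptors, beside 5.63% of all genes, and large falls 25%, beside 6.02%. Of 24 adhesion receptors, 3 were higher, 6 lower and 15 not called, which is 37.5% called, beside 30% of all genes. In each direction 12.5% were higher, beside 13.0% of all genes, and 25% lower, beside 17.0%. Of these 9 called receptors 8 changed by at least 1 on the log2 scale, as did 3 of the 17 called numbered receptors and 2584 of the 6661 called genes in all (38.8%). The receptors higher in GFP-high cells were Adgrd1, Adgrf5 and Adgra3.

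Adgrd1, which raises cyclic AMP through the stimulatory G protein, read 7.46, 6.29 and 6.61 in GFP-high cells, against 4.67, 4.38 and 4.89 in GFP-negative cells. All 3 GFP-high arrays lay above all 3 GFP-negative arrays, and GFP-high 1 stood highest. The log2 fold change was 2.14 ± 0.28 (SE, 95% interval 1.51 to 2.78, adjusted p = 0.000496), or 4.41-fold higher in GFP-high cells.

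Adgrf5, which in mouse alveolar type 2 cells keeps the surfactant pool in check, read 10.63, 10.61 and 10.54 in GFP-high cells, against 8.49, 9.41 and 8.47 in GFP-negative cells. The GFP-high arrays lay close together, and GFP-negative 2 was the array nearest to them without overlap. This was a log2 fold change of 1.80 ± 0.24 (SE, 95% interval 1.26 to 2.34, adjusted p = 0.000518), or 3.49-fold. Sftpd, a surfactant protein reported as a ligand of Adgrf5 in the mouse, was 20.6-fold higher in GFP-high cells. Adgrf5 is also known from vessel walls, where Pecam1 and Cdh5 are defining genes: Pecam1 averaged 5.36 ± 0.05 in GFP-high cells and 5.42 ± 0.06 in GFP-negative cells, and Cdh5 averaged 5.07 ± 0.21 in GFP-high cells and 5.02 ± 0.07 in GFP-negative cells (SD, n = 3 each). Neither was called. Of 12 endothelial markers 2 were higher, Kdr (log2 fold change 3.87 ± 0.13, SE) and Esam (0.60 ± 0.14). Another 2 were lower, Vwf (-2.07 ± 0.23) and Erg (-1.31 ± 0.12). Across the GFP-high arrays the log2 summed level of the 12 ran from 10.33 to 10.63, against 10.43 to 10.84 across the GFP-negative arrays. Such a sum rests mostly on the brightest gene, which was Kdr for the GFP-high group (mean 9.72) and Vwf for the GFP-negative group (mean 10.14). Kdr and Vwf changed in opposite directions, so the similar sums do not show that vessel content was equal. The part of vessel cells in the Adgrf5 values was not tested.

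RefSeq lists a pair of starts for Adgrf5, and both promoter windows are shown because, of the higher receptors with a change of at least 1, Adgrf5 is the one with promoter entries in the table used here. Each window holds the 250 bases before a listed gene start in GRCm38.p6, read 5′ to 3′ on the gene's strand. Capitals mark matches, on either strand, to any of 5 short motifs: TGGGAA (the core bound by RBPJ, the Notch effector), CACNAG (the N box of Hes factors), CACGCG (the class C site of Hes factors), TTCAGCACC (part of the site bound by REST) and GGAATG (a TEAD core). The first window is chr17:43360181-43360430 and the second chr17:43389216-43389465, both on the plus strand.
Adgrf5 start 1: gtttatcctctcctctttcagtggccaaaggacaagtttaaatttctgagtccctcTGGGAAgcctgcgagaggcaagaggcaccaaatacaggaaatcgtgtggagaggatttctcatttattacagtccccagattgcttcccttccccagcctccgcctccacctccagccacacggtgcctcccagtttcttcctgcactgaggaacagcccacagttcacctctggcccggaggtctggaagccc
Adgrf5 start 2: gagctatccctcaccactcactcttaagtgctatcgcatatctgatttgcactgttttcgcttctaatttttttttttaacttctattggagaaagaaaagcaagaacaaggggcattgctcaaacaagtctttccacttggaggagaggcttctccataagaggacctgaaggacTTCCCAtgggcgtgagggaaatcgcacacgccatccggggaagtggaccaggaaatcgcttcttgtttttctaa
Each window holds 1 match, to TGGGAA, which in the second window lies on the opposite strand. The same 6 letters occur in 21.6% of the 32851 promoter windows of the table and in 21.4% of the 84 windows of the receptors, so a match describes these letters and nothing about binding.

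Adgra3, an orphan adhesion receptor, was the smallest of the called adhesion changes. It averaged 7.61 ± 0.04 in GFP-high cells and 7.06 ± 0.25 in GFP-negative cells (SD, n = 3 each), a log2 fold change of 0.55 ± 0.14 (SE, adjusted p = 0.0173). The call was lost without GFP-high replicate 1 (adjusted p = 0.0513), without GFP-negative replicate 1 (adjusted p = 0.0652) and without GFP-negative replicate 2 (adjusted p = 0.0542). Its relatives Adgra2, which acts with Reck in Wnt7 signalling of brain vessels, and Adgra1 were not called.

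All 3 receptors of the Adgrb group, large receptors of synapses whose founding member also binds phosphatidylserine on dying cells, fell in GFP-high cells. Adgrb2 read 6.52, 6.04 and 6.74 in GFP-high cells, against 8.67, 8.35 and 8.88 in GFP-negative cells. The groups lay apart by more than the range within either. Its log2 fold change of -2.20 ± 0.20 (SE, 95% interval -2.66 to -1.73, adjusted p = 8.68e-05), 4.58-fold lower in GFP-high cells, was the largest fall among the 88 receptors.

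Adgrb1 read 5.72, 5.90 and 5.89 in GFP-high cells, against 7.15, 7.05 and 7.18 in GFP-negative cells. Both groups were tight and did not overlap, and the adjusted p was the smallest of the 88 receptors. That is a log2 fold change of -1.29 ± 0.11 (SE, 95% interval -1.55 to -1.04, adjusted p = 6.15e-05), or 2.45-fold lower in GFP-high cells.

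Adgrb3, which binds C1q-like proteins at cerebellar synapses, read 4.24, 4.47 and 5.21 in GFP-high cells, against 5.42, 6.50 and 7.18 in GFP-negative cells. The groups did not overlap, but GFP-high 3 and GFP-negative 1 lay close to each other. The log2 fold change was -1.72 ± 0.42 (SE, 95% interval -2.67 to -0.78, adjusted p = 0.0131), and the call was lost without GFP-high replicate 2 (adjusted p = 0.0504).

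Windows for Adgrb2 (chr4:129984620-129984869, plus strand) and Adgrb3 (chr1:25829708-25829957, minus strand) are set side by side because both genes fell and their promoters differ in composition. Adgrb1, which also fell, has no promoter entry among those used here.
Adgrb2: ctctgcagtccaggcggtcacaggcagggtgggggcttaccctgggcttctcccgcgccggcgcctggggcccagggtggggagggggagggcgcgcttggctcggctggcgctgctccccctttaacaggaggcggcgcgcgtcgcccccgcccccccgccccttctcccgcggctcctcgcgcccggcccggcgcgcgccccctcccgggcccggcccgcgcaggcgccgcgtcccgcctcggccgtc
Adgrb3: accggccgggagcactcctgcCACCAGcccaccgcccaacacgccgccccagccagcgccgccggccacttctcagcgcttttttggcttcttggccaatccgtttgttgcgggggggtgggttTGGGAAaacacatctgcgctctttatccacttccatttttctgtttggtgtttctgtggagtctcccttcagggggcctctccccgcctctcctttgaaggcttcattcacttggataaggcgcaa
The Adgrb2 window is 81.6% G and C with 35 CpG sites and no match to any of the 5 motifs, and the Adgrb3 window is 59.2% G and C with 14 CpG sites and a match each to CACNAG and TGGGAA. The median window of the table has 6 CpG sites.

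Adgrl1, a latrophilin that binds teneurins and FLRT proteins across the synapse and is the receptor for a spider toxin, read 7.17, 7.02 and 7.56 in GFP-high cells, against 9.02, 9.07 and 9.41 in GFP-negative cells. The 3 GFP-high arrays lay below every GFP-negative array. The log2 fold change was -1.91 ± 0.17 (SE, 95% interval -2.30 to -1.52, adjusted p = 7.27e-05), or 3.77-fold lower in GFP-high cells. The other Adgrl receptors were not called. Adgrl2 had a log2 fold change of -0.32 ± 0.12 (adjusted p = 0.0749), Adgrl4, known from vessel walls, of -0.06 ± 0.14, and Adgrl3 of -0.33 ± 0.56. The wide error of Adgrl3 comes from GFP-negative 3, which read 6.10 beside 3.76 and 3.77 in the other GFP-negative arrays and 4.06, 3.96 and 4.62 in GFP-high cells. A further row for Adgrl3 differed by -0.23 ± 0.13, also not called.

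Adgrv1, a very large receptor of the links between the stereocilia of inner ear hair cells, read 5.46, 5.48 and 5.99 in GFP-high cells, against 7.31, 7.55 and 7.82 in GFP-negative cells. GFP-high 3 was the highest of its group and still below every GFP-negative array. Adgrv1 thus had a log2 fold change of -1.92 ± 0.19 (SE, 95% interval -2.34 to -1.49, adjusted p = 0.000112), or 3.77-fold lower in GFP-high cells.

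Adgrg2, known from fluid transport in the ducts that drain the testis, read 4.65, 4.49 and 5.55 in GFP-high cells, against 6.53, 6.65 and 6.89 in GFP-negative cells. GFP-high 3 again lay nearest to the GFP-negative arrays, without overlap. Its log2 fold change was -1.80 ± 0.26 (SE, 95% interval -2.38 to -1.21, adjusted p = 0.000855), or 3.47-fold lower in GFP-high cells. Its window (chrX:160390440-160390689, plus strand) is shown as 1 of the lower receptors with the CACNAG letters.
Adgrg2: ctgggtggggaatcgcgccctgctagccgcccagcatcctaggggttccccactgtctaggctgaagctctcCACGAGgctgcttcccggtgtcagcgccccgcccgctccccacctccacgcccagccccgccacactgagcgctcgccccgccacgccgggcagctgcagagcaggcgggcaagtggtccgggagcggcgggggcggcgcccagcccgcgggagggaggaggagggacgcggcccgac
It holds 1 match, to CACNAG, and 26 CpG sites.

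The other Adgrg receptors were not called, and Adgrg2 was the only 1 of 6 that was. Adgrg1, which guides the building of the cerebral cortex, read 10.95, 10.86 and 11.03 in GFP-high cells, against 10.84, 11.20 and 10.97 in GFP-negative cells. The groups overlapped, and the 95% interval of the log2 difference, -0.35 to 0.24, is narrow beside the changes of the called adhesion receptors. Adgrg6, needed by Schwann cells to make myelin, read 9.39, 9.03 and 9.68 in GFP-high cells, against 9.98, 10.40 and 9.67 in GFP-negative cells. GFP-high 3 and GFP-negative 3 were nearly equal, and the log2 fold change of -0.65 ± 0.22 missed the threshold (adjusted p = 0.0525). Without GFP-high replicate 3 it was -0.81 (adjusted p = 0.0313), and without GFP-negative replicate 3 it was -0.83 (adjusted p = 0.0248).

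The 15 adhesion receptors that were not called ranged from -0.65 to 0.31 on the log2 scale. They comprise Adgra1, Adgra2, Adgre1, Adgre4, Adgrf1, Adgrf2, Adgrf4, Adgrg1, Adgrg3, Adgrg4, Adgrg6, Adgrg7, Adgrl2, Adgrl3 and Adgrl4. Of these, 8 were among the dimmest 30% of genes, including Adgre1, the classic surface marker of mouse macrophages, which averaged 4.78 ± 0.15 in GFP-high cells and 4.48 ± 0.34 in GFP-negative cells (SD, n = 3 each).

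**Figure D2:**
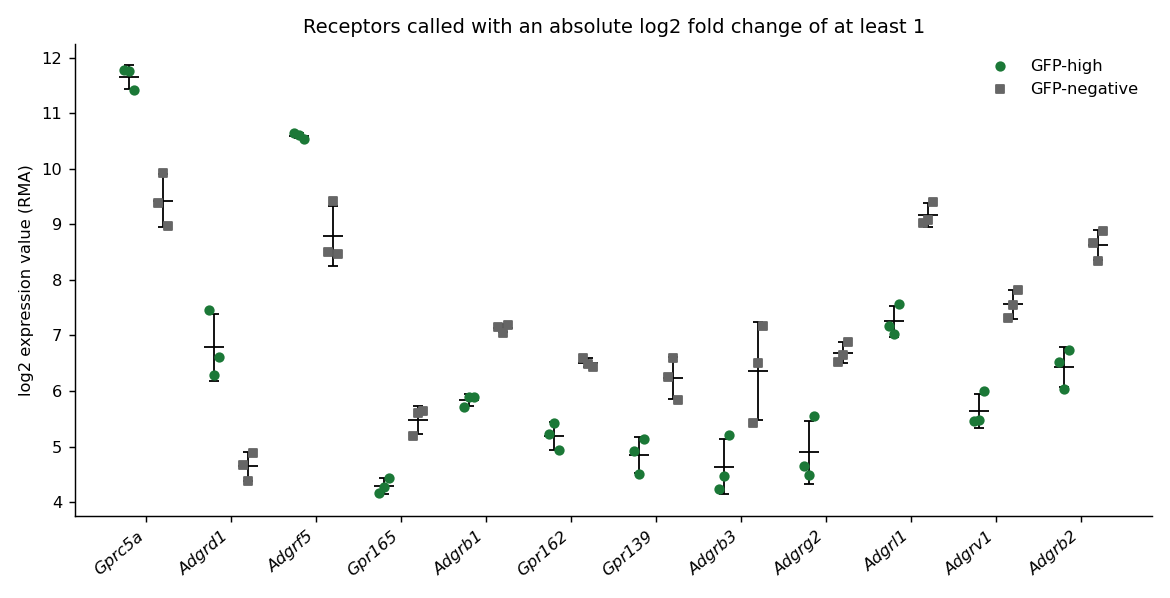
Log2 expression values (y axis) of the 12 receptors called with an absolute log2 fold change of at least 1, with GFP-high arrays as green circles and GFP-negative arrays as grey squares, and the mean and SD of each group in black (n = 3). The groups do not overlap for any of the 12, and they come nearest for Adgrb3. Values of different receptors come from different probes and are not comparable with each other.

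Of the 4 Gprc5 receptors, class C receptors first found as genes induced by retinoic acid, only Gprc5a was called. Gprc5a, which is abundant in lung epithelium and whose loss leads to lung tumours in mice, read 11.78, 11.76 and 11.41 in GFP-high cells, against 9.39, 9.93 and 8.97 in GFP-negative cells. Every GFP-high array lay above every GFP-negative array, and GFP-negative 2 was the highest of its group. Gprc5a thus had a log2 fold change of 2.22 ± 0.23 (SE, 95% interval 1.70 to 2.75, adjusted p = 0.000151), or 4.67-fold, the largest rise among the 88 receptors.

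GFP-negative 2 stood highest of its group for Gprc5a, for Adgrf5 and for several airway genes, but lowest for Adgrd1. Alveolar genes differed. Of the alveolar type 2 markers, it was the highest for Sftpa1, Sftpb, Abca3, Lamp3, Slc34a2, Cxcl15 and Etv5. It was not the highest for Sftpc, Sftpd, Napsa, Lyz1 or Lpcat1. Of the alveolar type 1 markers, it was the highest for Clic5 and Emp2 but not for the rest, Ager among them. Scgb3a1, a club cell marker, read 12.59, 12.26 and 12.37 in GFP-high cells, against 7.07, 8.13 and 6.69 in GFP-negative cells, with GFP-negative 2 the highest of its 3 arrays. Muc5b, an airway mucin, read 5.52, 6.23 and 5.29 in the GFP-negative arrays. The part of this in the values of Gprc5a and Adgrf5 was not tested. The remaining Gprc5 receptors had log2 fold changes of 0.34 ± 0.14 (Gprc5c, adjusted p = 0.098), 0.31 ± 0.15 (Gprc5d) and -0.15 ± 0.12 (Gprc5b).

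Among the 60 numbered receptors 4 were higher and 13 lower in GFP-high cells, which is 28.3% called, beside 30% of all genes. The changes of at least 1 on the log2 scale were 3 falls (5%, beside 6.02% of all genes) and 0 rises (0%, beside 5.63%). The 3 falls were those of Gpr139, Gpr162 and Gpr165.

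Gpr139, a receptor of the habenula that responds to aromatic amino acids, read 4.93, 4.50 and 5.13 in GFP-high cells, against 6.25, 6.60 and 5.84 in GFP-negative cells. The groups did not overlap, with GFP-high 3 and GFP-negative 3 the nearest arrays. The log2 fold change was -1.38 ± 0.22 (SE, 95% interval -1.88 to -0.87, adjusted p = 0.0016), or 2.60-fold lower in GFP-high cells.

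Gpr162, an orphan receptor found mainly in the brain, read 5.22, 5.43 and 4.93 in GFP-high cells, against 6.60, 6.49 and 6.44 in GFP-negative cells. GFP-high 3 was here the lowest array of its group, and the GFP-negative arrays lay close together. Its log2 fold change was -1.31 ± 0.14 (SE, 95% interval -1.64 to -0.98, adjusted p = 0.000212), or 2.49-fold lower in GFP-high cells.

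Gpr165 read 4.17, 4.27 and 4.44 in GFP-high cells, against 5.19, 5.61 and 5.63 in GFP-negative cells. The groups lay apart by more than the range within either. Gpr165 thus had a log2 fold change of -1.18 ± 0.15 (SE, 95% interval -1.53 to -0.84, adjusted p = 0.000442), or 2.27-fold lower in GFP-high cells.

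The motif letters were counted over all windows. The receptors' 84 windows belong to 66 of the 88 receptors. CACNAG occurred in 36.9% of receptor windows, beside 36.7% of all windows, and by gene in 5 of the 13 lower receptors with a window (Adgrb3, Adgrg2, Gpr62, Gpr75 and Gpr142), 1 of the 5 higher receptors (Gpr108) and 24 of the 48 that were not called. CACGCG occurred in 3.57% of receptor windows, beside 7.62% of all windows, GGAATG in 8.33%, beside 12.6%, and TTCAGCACC in 0 receptor windows, beside 0.301% of all windows. These shares are descriptions of sequence and were not tested.

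Of 27 numbered receptors known mainly from the nervous system, 1 was higher, 8 lower and 18 not called. The called share was 33.3%, beside 30% of all genes, and the group was formed by hand with these values known. Beside Gpr139 and Gpr162, the lower receptors included Gpr27 and Gpr173, members of the conserved brain group called SREB. Gpr27 averaged 6.44 ± 0.09 in GFP-high cells and 7.40 ± 0.06 in GFP-negative cells (SD, n = 3 each), a log2 fold change of -0.96 ± 0.11 (adjusted p = 0.00025). Gpr173 had -0.57 ± 0.14 (adjusted p = 0.0142), lost without GFP-high replicate 2 (adjusted p = 0.052), and Gpr85, the third of that group, was not called. Gpr153, Gpr62, Gpr135 and Gpr75 fell by 0.79, 0.65, 0.61 and 0.58 on the log2 scale, with adjusted p-values between 0.00338 (Gpr62) and 0.00485 (Gpr135).

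Gpr17, a receptor of oligodendrocyte precursors, was the only higher receptor of this nervous system group. It averaged 5.79 ± 0.12 in GFP-high cells and 5.35 ± 0.06 in GFP-negative cells (SD, n = 3 each), a log2 fold change of 0.43 ± 0.11 (adjusted p = 0.0194). The call was lost without GFP-high replicate 1 (adjusted p = 0.0755), GFP-negative replicate 1 (adjusted p = 0.0627) or GFP-negative replicate 2 (adjusted p = 0.0564). Of the 4 measured glial markers 0 were called.

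The 18 nervous system receptors that were not called were Gpr6, Gpr12, Gpr19, Gpr22, Gpr26, Gpr37, Gpr45, Gpr50, Gpr52, Gpr61, Gpr63, Gpr83, Gpr85, Gpr101, Gpr151, Gpr158, Gpr176 and Gpr179. Gpr158, a receptor of synapses that holds an RGS protein at the membrane, read 5.12, 5.48 and 5.94 in GFP-high cells, against 5.94, 7.49 and 6.32 in GFP-negative cells. The highest GFP-high and the lowest GFP-negative array were nearly equal, and the log2 fold change of -1.07 ± 0.37 missed the threshold (adjusted p = 0.0608). A further row for Gpr158 differed by 0.22 ± 0.14, also not called, so its rows disagree in sign. Without GFP-negative replicate 1 the fold change was -1.40 (adjusted p = 0.0273). Gpr179, a receptor of retinal bipolar cells, read 4.93, 5.16 and 5.23 in GFP-high cells, against 5.15, 4.55 and 7.04 in GFP-negative cells, so that GFP-negative 3 alone stood apart, as it did for Adgrl3. Gpr63 had -0.37 ± 0.16 (adjusted p = 0.118) and passed the threshold without GFP-high replicate 3, at -0.52 (adjusted p = 0.0295).

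Of the numbered receptors known mainly from leukocytes 0 of 15 were called, beside 30% of all genes, and 0 had an unadjusted limma p under 0.05. Among the dimmest 30% of genes, where 6.57% of all genes were called, lay 9 of the 15. The log2 fold changes of the 15 receptors ran from -0.13 to 0.39. The 15 comprise Gpr15, Gpr18, Gpr25, Gpr33, Gpr34, Gpr35, Gpr55, Gpr65, Gpr82, Gpr84, Gpr132, Gpr141, Gpr171, Gpr174 and Gpr183. Gpr82 passed the threshold without GFP-high replicate 2, at a log2 fold change of 0.56 (adjusted p = 0.0497). Of the 10 leukocyte markers 1 was called, Coro1a, which was lower in GFP-high cells, and the defining gene Ptprc averaged 4.59 ± 0.40 in GFP-high cells and 5.05 ± 0.32 in GFP-negative cells (SD, n = 3 each). The log2 of the summed leukocyte marker level was 8.82 to 9.31 in GFP-high and 9.15 to 9.36 in GFP-negative arrays. Of 11 macrophage and monocyte markers Cd14 was higher (log2 fold change 2.32 ± 0.22, SE) and C1qa lower (-0.42 ± 0.13). Of 9 T and B cell markers Cd79b was higher (0.87 ± 0.12), and of 10 neutrophil and dendritic cell markers 0 were called.

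Of 5 numbered receptors known from organelles inside the cell, Gpr108, a Golgi protein used by adeno-associated viruses for entry, was higher, by 0.45 ± 0.13 on the log2 scale (adjusted p = 0.0251). It was the least stable call among the receptors: it was lost under 8 of 15 other settings, among them leaving out any 1 array other than GFP-negative 2 (adjusted p = 0.0516 to 0.0917). Gpr107, Gpr143, Gpr155 and Gpr180 were not called, so 20% of this group was called, beside 30% of all genes.

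The last 13 numbered receptors have roles in other tissues or none assigned here, and 2 were higher, 5 lower and 6 not called. The called share was 53.8%, beside 30% of all genes, and 38.5% were lower, beside 17.0% of all genes. These 13 are what the sorting by hand left over, which was done with these values known. Gpr157, which sits on the cilium of mouse radial glia, averaged 6.66 ± 0.12 in GFP-high cells and 5.90 ± 0.18 in GFP-negative cells (SD, n = 3 each), a log2 fold change of 0.76 ± 0.13 (adjusted p = 0.00245). Gpr160 averaged 5.34 ± 0.26 in GFP-high cells and 4.67 ± 0.09 in GFP-negative cells, a log2 fold change of 0.67 ± 0.15 (adjusted p = 0.00852). No array of the groups overlapped for either receptor.

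The lower receptors of this group, beside Gpr165, came from several tissues. Gpr142, a receptor for tryptophan on pancreatic islet cells, averaged 5.31 ± 0.12 in GFP-high cells and 6.27 ± 0.42 in GFP-negative cells, a log2 fold change of -0.97 ± 0.20 (adjusted p = 0.00603). Gpr20 averaged 6.02 ± 0.16 in GFP-high cells and 6.97 ± 0.07 in GFP-negative cells, a log2 fold change of -0.95 ± 0.12 (adjusted p = 0.000443). Gpr161, a ciliary receptor that restrains Hedgehog signalling, fell by 0.72 ± 0.14 (adjusted p = 0.00412), and Gpr182, which takes up chemokines on vessel walls, by 0.59 ± 0.10 (adjusted p = 0.00275), both on the log2 scale. Gpr1, Gpr4, Gpr119, Gpr146, Gpr149 and Gpr152 were not called, and 4 of these 6 were among the dimmest 30% of genes.

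**Figure D3:**
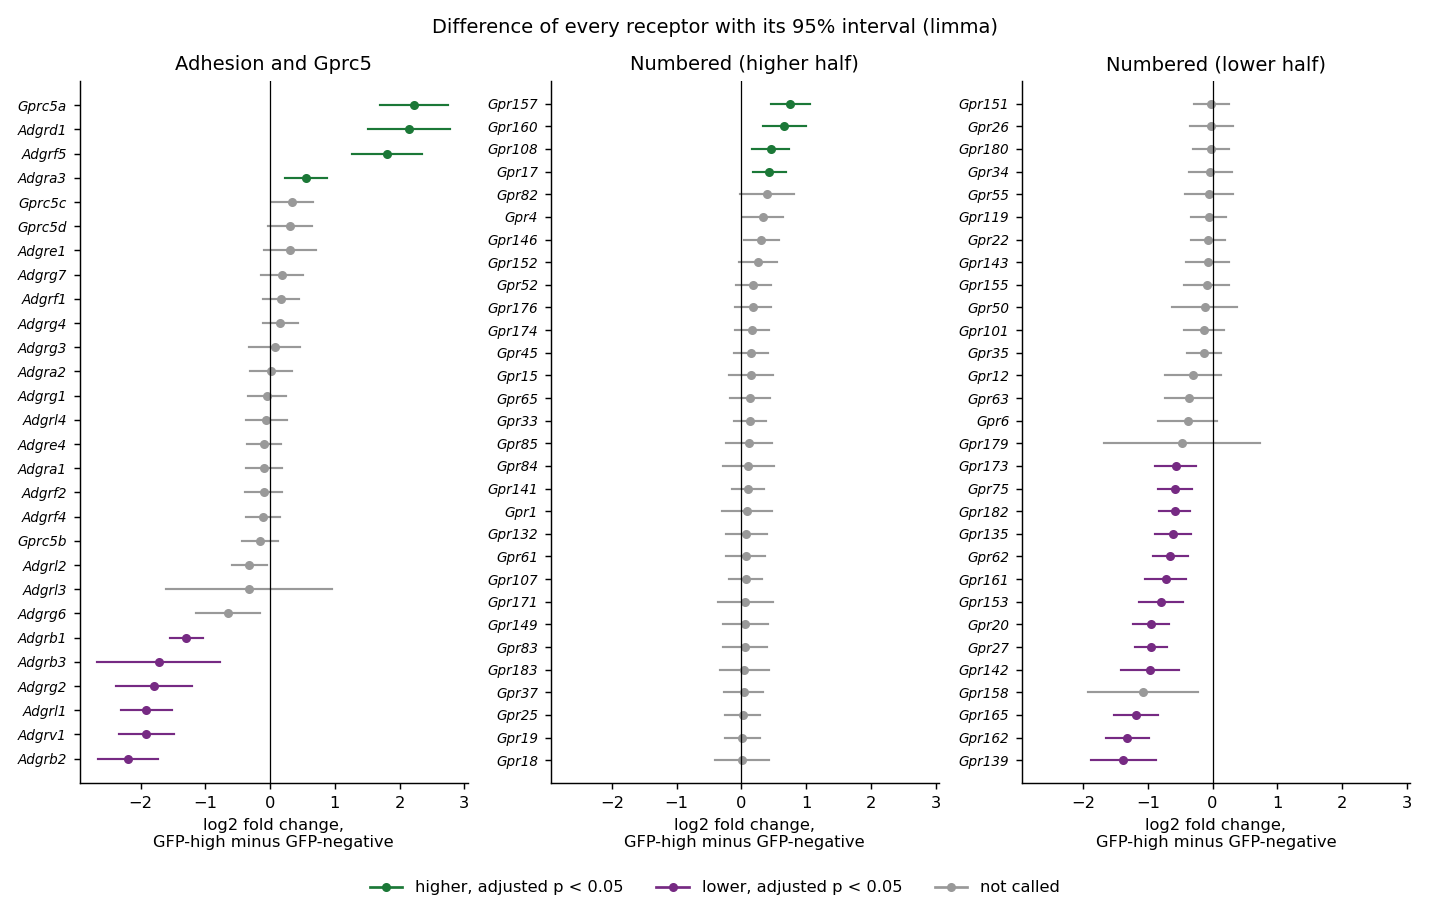
Log2 fold change of GFP-high minus GFP-negative (x axis) with its 95% interval from limma for each of the 88 receptors (rows), coloured green where higher, purple where lower and grey where not called. The long grey bars of Adgrl3, Gpr179 and Gpr158 mark the receptors with the widest intervals among those not called, and the leukocyte receptors such as Gpr183 and Gpr65 lie near 0.

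The lower receptors were also compared array by array within the GFP-high group. GFP-high 3 was the array nearest to the GFP-negative mean for 12 of the 19 lower receptors, GFP-high 2 for 6 and GFP-high 1 for 1. It was also the nearest array for 4 of the 8 higher receptors and 29 of the 61 that were not called. The same count was not made over all genes, so it is not shown to be particular to the receptors. The median of the 19 stood 1.13, 1.04 and 0.99 below the GFP-negative mean in GFP-high 1, GFP-high 2 and GFP-high 3. For the neuroendocrine markers GFP-high 3 was likewise the nearest array, with Ncam1 at 7.11, 6.80 and 8.25 in GFP-high cells, against 9.83, 9.84 and 10.48 in GFP-negative cells. The part of the neuroendocrine content of each array in the receptor values was not tested.

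**Figure D4:**
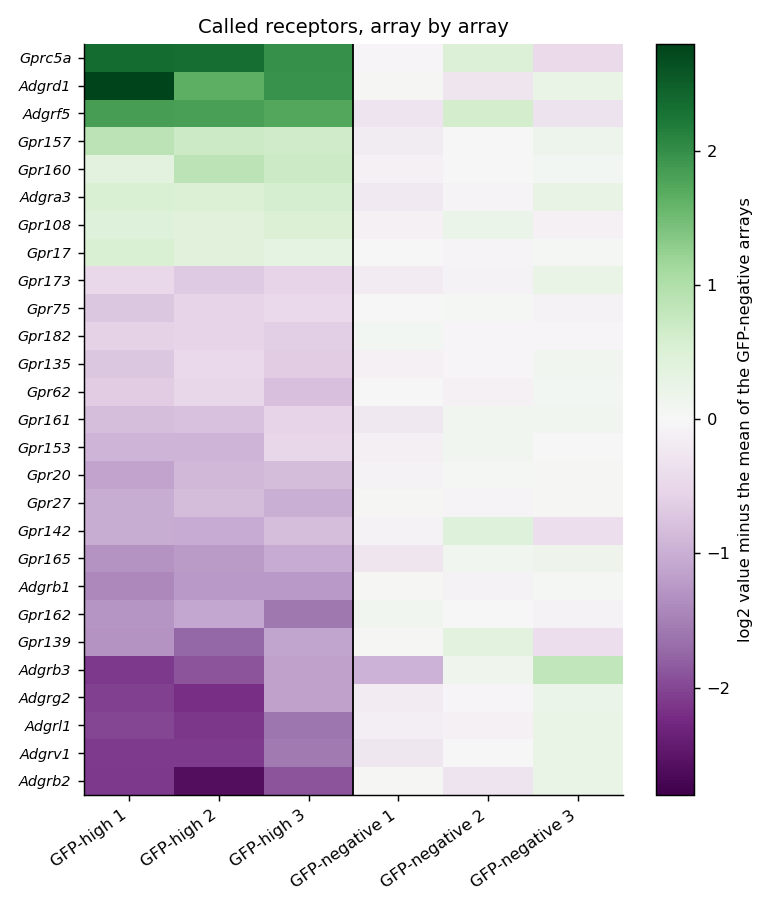
Log2 value minus the mean of the GFP-negative arrays (colour, green higher and purple lower) for the 27 called receptors (rows) in each of the 6 arrays (columns, GFP-high left of the line). The purple of Adgrb3, Adgrg2, Adgrl1, Adgrv1 and Adgrb2 is paler in GFP-high 3 than in GFP-high 1 and GFP-high 2.

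RefSeq places 9 pairs of the 88 receptors side by side among protein-coding genes. In 4 pairs 1 gene was called, and in 0 pairs were both called, a count too small to set against the 30% of all genes called. The higher Gprc5a and Adgrf5 had as neighbours Gprc5d (0.31) and Adgrf1 (0.16), and the lower Gpr139 and Gpr142 had Gprc5b (-0.15) and Gprc5c (0.34), all 4 not called.

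The G proteins that the receptors act through changed in both directions. Of 16 alpha subunits 2 were higher, 5 lower and 9 not called (43.8% called, beside 30% of all genes), with a median log2 fold change of -0.16. Gnao1, the main inhibitory-type alpha subunit of neurons, averaged 8.60 ± 0.41 in GFP-high cells and 10.82 ± 0.06 in GFP-negative cells (SD, n = 3 each), a log2 fold change of -2.22 ± 0.19. Its relative Gnaz fell by 1.37 ± 0.22. The related inhibitory subunit Gnai1 averaged 7.28 ± 0.18 in GFP-high cells and 5.74 ± 0.14 in GFP-negative cells and rose by 1.54 ± 0.13, and Gna14, which activates phospholipase C, rose by 1.08 ± 0.14. Of 15 beta and gamma subunits 2 were higher, 4 lower and 9 not called (40% called, median -0.12). The neuronal subunit Gng3 had a log2 fold change of -2.29 ± 0.16 and Gng12 of 0.86 ± 0.15.

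Of 21 measured RGS proteins, which switch G proteins off, 0 were higher, 7 lower and 14 not called, and their median was -0.05. The called share was 33.3%, beside 30% of all genes. Rgs7, which pairs with Gpr158 in the brain and acts on Gnao1, averaged 5.89 ± 0.55 in GFP-high cells and 8.44 ± 0.03 in GFP-negative cells (SD, n = 3 each), a log2 fold change of -2.54 ± 0.24. Rgs16, Rgs2 and Rgs4 had log2 fold changes of -2.16 ± 0.35, -2.05 ± 0.21 and -2.01 ± 0.23. Of 11 receptor kinases, arrestins and G protein chaperones 2 were higher, 1 lower and 8 not called (27.3% called, median 0.08). The arrestins, which end receptor signalling and carry receptors inward, differed in direction: Arrb1 had a log2 fold change of 1.64 ± 0.14 and Arrb2 of -0.59 ± 0.12. The kinase Grk3 had 0.66 ± 0.13.

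Second messenger enzymes were called in 64.7% of cases, beside 30% of all genes. Of 17, 6 were higher, 5 lower and 6 not called, with a median of 0.06. Of the 14 that lay outside the dimmest 30% of genes 11 were called (78.6%), beside 40.1% of all genes there. Like the other lists around the receptors, this list was chosen with earlier results of these data known. Its only phosphodiesterases are the 4 Pde4 genes, so these shares are not those of the whole class of enzymes. The adenylyl cyclases Adcy2 and Adcy1, which are known from neurons, had log2 fold changes of -2.02 ± 0.22 and -1.98 ± 0.20. Among the phospholipases C, Plcb3 had 1.90 ± 0.11 and Plcb1 -1.46 ± 0.20. Chosen after their values were seen, all 4 Pde4 genes, which break down cyclic AMP, were higher, from Pde4a at 0.59 ± 0.11 to Pde4b at 1.39 ± 0.11.

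Ligands and partners of adhesion receptors were called in 14 of 23 cases (60.9%, beside 30% of all genes), 6 higher and 8 lower, with a median of 0.23. Of the 7 teneurins and FLRT proteins, the partners of latrophilins, 5 were lower and 2 not called, while 17.0% of all genes were lower. These 7 were taken from the list after their values were seen, and the 6 higher genes of the list all lie outside them. Flrt1 had a log2 fold change of -1.91 ± 0.22. Named after their values were seen, Tenm1, Tenm2 and Tenm4 had -1.77, -0.84 and -1.53 and Flrt3 -0.74, while Tenm3 had 0.05 ± 0.22 and Flrt2 0.54 ± 0.22 (adjusted p = 0.104), both not called. The higher genes included Sftpd (4.36 ± 0.12), the Adgrf5 ligand above, and Cd55 (3.00 ± 0.18), a complement inhibitor that binds an adhesion receptor of leukocytes. Dock1 and Elmo1 act together downstream of Adgrb1 and moved apart: Dock1 had 2.21 ± 0.19 and Elmo1, chosen after its value was seen, -1.73 ± 0.20. Of 6 ligands and ligand enzymes of numbered receptors 1 was higher, 2 lower and 3 not called (50% called, median -0.18). Cxcl17, a mucosal chemokine that has been proposed as a ligand of numbered receptors, averaged 10.65 ± 0.10 in GFP-high cells and 7.56 ± 0.54 in GFP-negative cells (SD, n = 3 each), and Enho and Psap had log2 fold changes of -0.81 ± 0.12 and -0.70 ± 0.14.

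**Figure D5:**
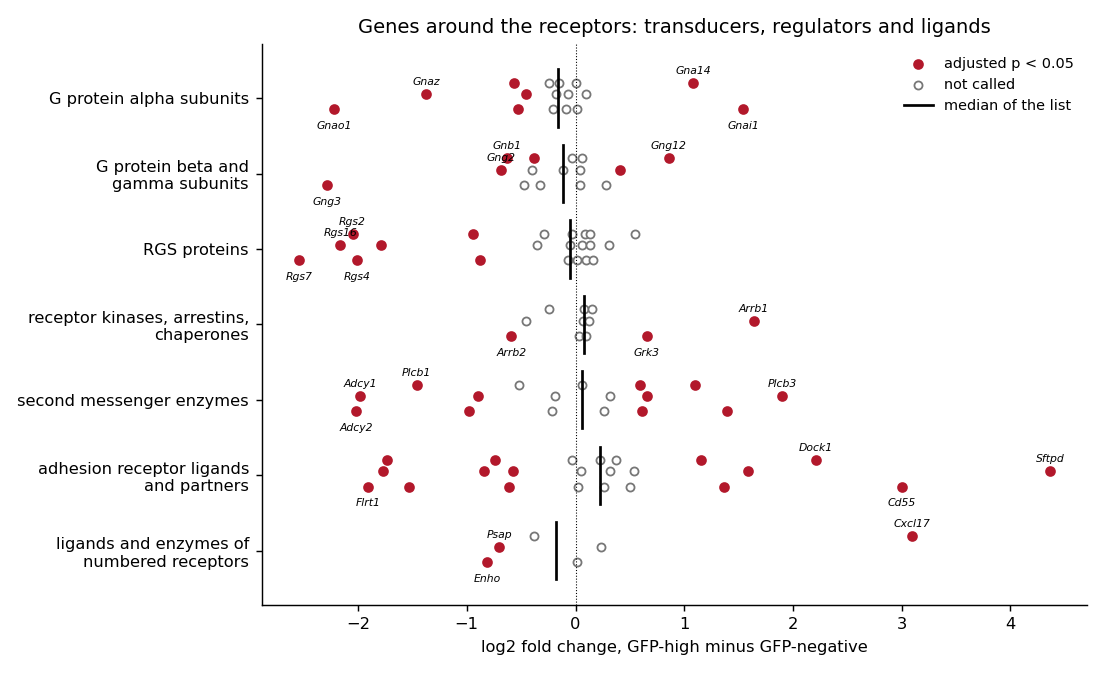
Log2 fold change of GFP-high minus GFP-negative (x axis) for the measured genes of 7 lists around the receptors (rows), filled red where called at an adjusted p under 0.05 and open where not called, with a black bar at the median of each list. The called RGS proteins all lie left of 0, while each of the other lists has called genes on both sides.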

How the data were processed

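RNA from 3 GFP-high and 3 GFP-negative samples was hybridised to 1 array each. The authors deposited log2 expression values made with RMA, per the submitters' processing notes, in a table of 41344 rows, and the version and settings of RMA are not stated in the sources read here. RMA pulls dim rows together, which shrinks differences of dim genes. Array medians ran from 5.30 to 5.43, and the number of arrays limits the precision. Columns of other samples numbered 0.

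Rows that name exactly 1 gene on the platform annotation (23520) gave 22179 genes, 1 row a gene by the highest mean. Of the 88 receptors, all were found in RefSeq by Entrez ID, 5 had more than 1 row, and 6 genes with names of this kind that share their row with another gene were not used here. limma 3.58.1 in R 4.3.3 (lmFit and eBayes, 4 residual and 4.50 prior degrees of freedom) was fitted over all genes with no block, so that positive fold changes mean higher in GFP-high cells. Its tests were two-sided, with Benjamini-Hochberg adjustment across the 22179 genes. Exact permutation of 3 against 3 arrays reaches no p under 0.1 and was not used. The fit was tested on simulated data. Per-sample values are given for receptors called with an absolute log2 fold change of at least 1, and other receptors by group. From each list of signalling genes, up to 4 called genes with the largest change are named.

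The receptors, lists and tests were chosen with earlier results of these data known, and numbered receptors were put into tissue groups by hand after their values were seen. Alternatives were median centring, quantile normalization, leaving out the dimmest 30% of genes, the mean of a gene's rows, every row on its own, other eBayes settings, array weights, no moderation, a minimum change, the replicate block and leaving out each array. Promoter windows come from RefSeq on GRCm38.p6, for 66 of the 88 receptors, without the 50 bases after the start. Tables were made with pandas 2.3.3 and numpy 2.4.6, and plots with matplotlib 3.10.9, in Python 3.11.15.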

Additional observations from a re-analysis of the deposited data

How the results depend on the processing

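No receptor changed its direction while called. Of the 27 called receptors 20 kept their call under all 15 other settings, and of the 12 described array by array 11 did, the exception being Adgrb3. Adgra3, Gpr17, Gpr108, Gpr142, Gpr160 and Gpr173 also lost theirs under at least 1 setting, and Adgrg6, Adgrl2, Gpr63, Gpr82, Gpr146 and Gpr158 gained one. The minimum change is not among the 15 settings. The mean of a gene's rows and every row on its own are among them and left all 88 receptors the same. No called receptor has more than 1 row, so those settings could not move its fold change. Without moderation of the variances 5 receptors were higher. With a minimum absolute log2 fold change of 1, 1249 genes were higher and 1335 lower, and 3 receptors were higher and 9 lower. Leaving out 1 array gave 5 to 8 higher and 17 to 21 lower receptors, with a median log2 fold change of -0.06 to 0.01. Without the dimmest 30% of genes the median of the receptors was -0.11. With the replicate number as a block, 2729 genes were higher and 3443 lower, and 7 receptors higher and 20 lower, with a median of -0.02. Deviations of same-numbered arrays correlated at 0.11, -0.03 and -0.002, so the numbers are not shown to pair the samples. The cause of these shifts was not tested. With 3 arrays a group the median SE of a receptor's log2 fold change was 0.14, and a dim row gives little evidence either way.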
